A study of Mus musculus with 3 samples.

Results

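The genes described here belong to the solute carrier families that move amino acids, di- and tripeptides and related small molecules across membranes. Members are the genes whose only symbol in the array annotation begins with Slc1a, Slc3a, Slc6a, Slc7a, Slc15a, Slc36a, Slc38a or Slc43a, leaving out Slc7a11. The rule uses no measured value. It found 67 of the 18193 genes with a probe set of their own, and 38 of the 67 passed the filter on low intensities. The families hold more than nutrient carriers: some Slc6a members carry neurotransmitters, osmolytes or creatine, and 3 members (Slc36a1os, Slc6a19os and Slc7a6os) are opposite strand genes named after a neighbouring transporter.

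Dietary protein reaches the small intestine as peptides and free amino acids. Carriers in the brush border, the microvillar surface facing the lumen, take them up, many driven by sodium or protons. Exchangers and facilitators in the basolateral membrane release them toward the blood. Other carriers feed the epithelial cell itself, or empty lysosomes of amino acids and report their level to the growth kinase mTOR. Several work only as heterodimers, in which a heavy chain of the Slc3a family brings a light chain of the Slc7a family to the membrane.

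RNA came from follicle-associated epithelium of the small intestine, the epithelial sheet over lymphoid follicles that contains antigen-sampling M cells. The data are 1 array of wild type C57BL/6 mice and 2 arrays, called KO1 and KO2 after their labels, of C57BL/6 mice depleted of RBP-J (VillinCre-Rbpjflox/flox). The mice were untreated, and the labels give no age. RBP-J carries the Notch signal to DNA. The Villin promoter drives Cre in epithelium, so immune and stromal cells in the sample are not a target of the deletion. The comparison asks how transporter genes differ between depleted and wild type epithelium.

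Each value is an intensity in multiples of its array's median, and each difference is one of log2(value + 0.248), depleted minus wild type. Where 3 values are given as 1 against the others, wild type comes first, then KO1, then KO2. Probe sets bind with different strength, so values are compared between arrays and not between genes. The labels do not say that KO1 and KO2 came from separate animals, so their spread may be technical. Rbpj itself read 7.15 in wild type, 2.72 in KO1 and 5.74 in KO2. Sex-linked genes split the arrays as the genotype does: Xist read 0.297 in wild type against 42.8 and 43.4. Genotype and that split cannot be told apart. The median difference over the 11885 genes tested was -0.003 in KO1 and 0.22 in KO2. All 8 epithelial markers, among them Epcam and Vil1, read at least 53.1 on every array, and 0 of 5 neuron and glia markers passed the filter. In such a mixed sample, fewer cells of a type and less RNA per cell cannot be told apart.

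No transporter gene was called different between depleted and wild type epithelium. Limma's adjusted p was 0.9997 for each of the 38 tested members, and 2 of the 38, Slc15a2 and Slc6a20b, had an unadjusted p under 0.05. Both passed the intensity filter only through the depleted arrays, and of the 32 members with a mean of at least 1, 0 had such a p. Over all genes, 0.0841% were called and 270 of 11885 had an unadjusted p under 0.05. The called genes include the sex-linked Xist, Eif2s3y, Kdm5d and Uty. Rbpj itself was not called. Its log2 difference was -1.32 in KO1 and -0.31 in KO2, with a mean of -0.81 (SE 0.49) and a limma adjusted p of 0.9997. The standard errors of the members' log2 differences lay between 0.37 and 0.64, so that even the narrowest 95% interval, that of Slc43a2, ran from -0.72 to 0.73. The median difference of the members was 0.17 in KO1 and 0.31 in KO2, beside -0.003 and 0.22 for all genes tested. With quantile normalization the members' medians were 0.11 and 0.06. The members' KO1 median depended on the filter and the probe sets. It was -0.03 with a filter at the 60th percentile, -0.02 with probe sets averaged per gene and -0.008 without _x_at and _s_at probe sets. The KO2 medians there were 0.31, 0.29 and 0.295. In KO1 it was 0.17 with a pseudocount of 1 or with no filter, and 0.08 with a pseudocount of 5. With every array scaled to a common 75th percentile it was 0.22. Of the 38 members, 21 (55.3%) read higher than wild type in KO1 and 33 (86.8%) in KO2, beside 49.8% and 69.7% of all genes. Against the median of all genes, 21 of the 38 lay above it in KO1 and 22 in KO2. Among the 32 members with a mean of at least 1, 19 differed from wild type by less than 0.5 on the log2 scale in both KO1 and KO2, and 53.5% of all genes that bright did so.

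**Figure D1:**
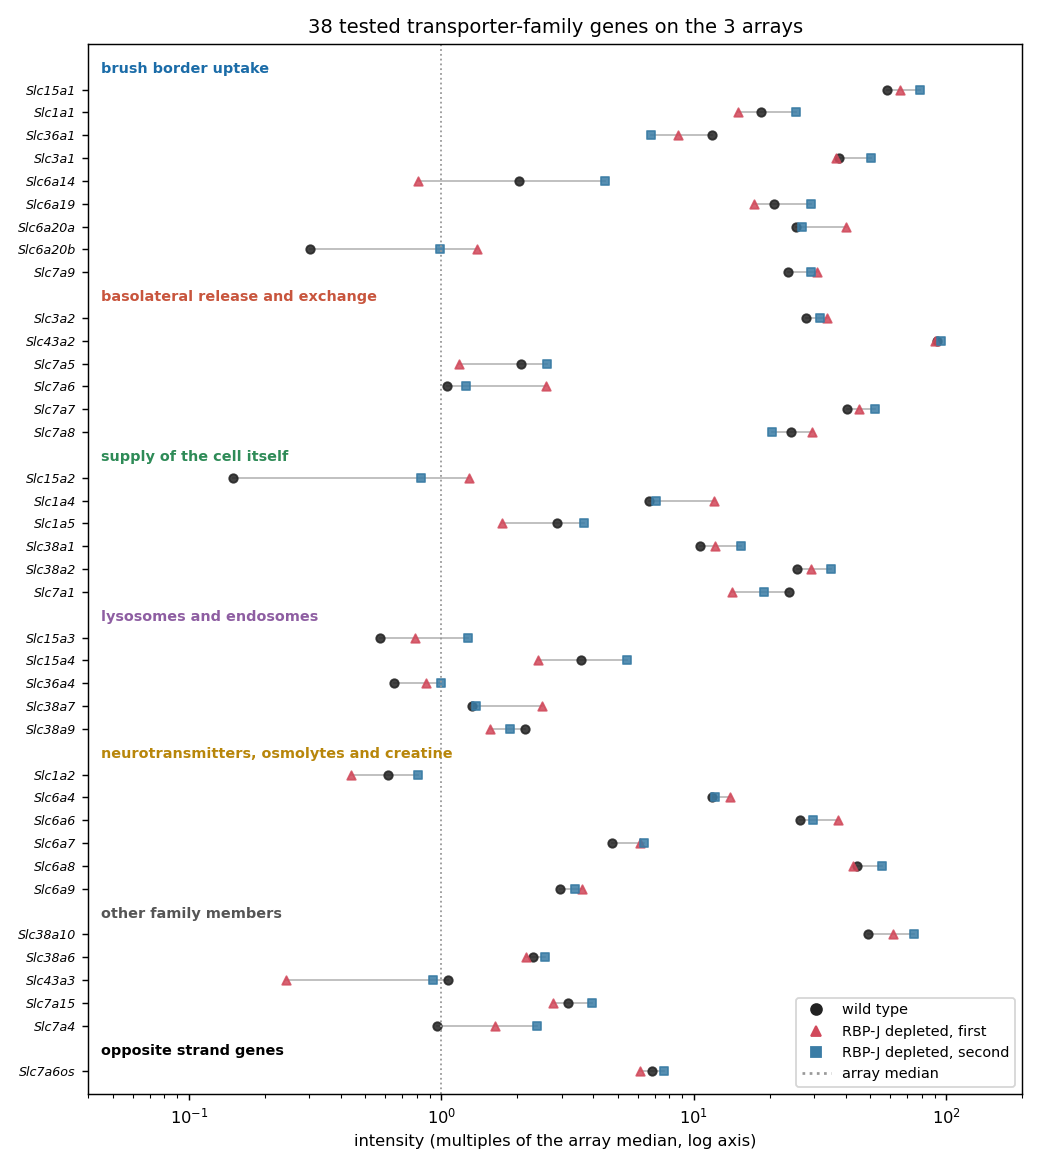
Intensity of the 38 tested members in wild type (circles), KO1 (triangles, first depleted array) and KO2 (squares, second depleted array), in multiples of the array median on a log axis, with a row for each gene, grouped by role; the dotted line is the array median of 1. Points of most genes lie close together, while Slc15a2 and Slc6a20b show wild type far to the left of KO1 and KO2.

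In the brush border, the peptide transporter and the main amino acid carriers read well above the array median everywhere, and none was called. Slc15a1, the proton-driven carrier that takes up di- and tripeptides, read 58.3 in wild type, 65.7 in KO1 and 78.9 in KO2. KO1 and KO2 were both above wild type, by a log2 difference of 0.30 (SE 0.39, 95% interval -0.45 to 1.06). The value for KO2, 0.44, includes the shift of 0.22 that all genes show in that array. Slc6a19, the main sodium-driven carrier of neutral amino acids, read 20.7 against 17.3 and 29.2, with wild type in between. Another probe set of Slc6a19, about as bright, gave the opposite order, 22.1 against 24.5 and 16.7. No direction can be given for this gene.

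The heterodimer that takes up cystine and basic amino acids consists of the heavy chain Slc3a1 and the light chain Slc7a9. Slc3a1 read 37.7 against 36.5 and 50.5, a log2 difference of 0.19 (SE 0.41). Slc7a9 read 23.5 against 30.8 and 29.2, a log2 difference of 0.35 (SE 0.43). Both differences were smaller than their error. In KO2 both chains read above wild type, and in KO1 only the light chain did. Slc1a1, the carrier of glutamate and aspartate, read 18.4 against 15.0 and 25.4, with wild type between KO1 and KO2. Of its other probe sets above the filter, 1 read 8.90 against 12.2 and 17.7, lowest in wild type. Another read 3.57 against 3.04 and 8.02, the same order as the probe set used.

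Slc6a20a, a carrier of proline and other imino acids, read 25.3 against 40.02 and 26.9. KO1 stood apart, while KO2 differed from wild type by 0.09 on the log2 scale, less than the array's shift of 0.22. Slc36a1, which carries small neutral amino acids with protons, read below wild type in both KO1 and KO2. It read 11.8 against 8.64 and 6.74, a log2 difference of -0.61 (SE 0.48) with a 95% interval -1.54 to 0.32, and did not pass the test. Slc6a18 and Slc36a2, relatives best known from the kidney, did not pass the intensity filter.

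Slc6a14, a broad carrier of neutral and basic amino acids, went opposite ways in KO1 and KO2. It read 2.03 in wild type, 0.811 in KO1 and 4.43 in KO2. KO2 was thus 4.41-fold above KO1 on the log2(value + 0.248) scale, while the mean difference from wild type was -0.03 (SE 0.54). Another probe set of the gene gave the same order, 2.39 against 0.786 and 3.50. Slc6a14 lies on the X chromosome, as does the creatine transporter gene Slc6a8.

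At the basolateral membrane, Slc43a2 and the chains Slc3a2, Slc7a7 and Slc7a8 release amino acids from enterocytes. With the probe sets used, these genes read close to their wild type values. Slc43a2, a facilitator of large neutral amino acids, read 92.2 against 90.2 and 94.8, a log2 difference of 0.005 (SE 0.37). Its other probe sets above the filter differed by 0.27 and -0.06, and by -0.56 and 0.23, in KO1 and KO2. Slc3a2, the heavy chain shared by the basolateral exchangers, read 27.7 against 33.7 and 31.7. Its partner Slc7a7, which exports basic amino acids, read 40.5 against 45.1 and 52.2. Both chains read somewhat above wild type in KO1 and KO2, with differences of 0.24 (SE 0.42) and 0.26 (SE 0.41). Another probe set of Slc7a7 above the filter read 15.0 against 11.8 and 21.2, below wild type in KO1. Slc7a8, a partner of Slc3a2 that exchanges neutral amino acids, read 24.3 against 29.3 and 20.5, with wild type in the middle.

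For the light chains Slc7a5 and Slc7a6, 1 array stood apart from the others. Slc7a5, an importer of large neutral amino acids common in dividing cells, read 2.06 against 1.18 and 2.61, lowest in KO1. Slc7a6, an exchanger of basic and neutral amino acids, read 1.05 against 2.58 and 1.26. Its other probe set read 0.911 against 2.12 and 1.47. KO1 stood above the other arrays in both probe sets of Slc7a6, and the mean log2 difference of 0.67 (SE 0.55) did not pass the test.

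Carriers that supply the cell itself gave no common direction. Slc38a2, a sodium-driven carrier of small neutral amino acids, read 25.7 against 29.0 and 35.1. The related Slc38a1 read 10.6 against 12.1 and 15.4. With the probe sets used, both were above wild type in KO1 and KO2. Their log2 differences were 0.31 (SE 0.43) for Slc38a2 and 0.36 (SE 0.46) for Slc38a1. Of the other Slc38a2 probe sets above the filter, 1 read 8.68 against 6.47 and 11.7, below wild type in KO1. Another read 12.1 against 12.3 and 19.3. Slc7a1, the widely used importer of arginine and lysine, read 23.8 against 14.1 and 19.0. That difference of -0.53 (SE 0.45) was not shared by its other probe sets above the filter, which differed by 0.10 and 0.34, and by -0.47 and 1.15, in KO1 and KO2. Slc1a4, an exchanger of alanine, serine and cysteine, read 6.67 against 12.1 and 7.09, with KO1 apart from the others. Its other probe sets above the filter differed by -0.37 and 0.26, and by 0.13 and -0.77, so that the value of KO1 rests on the probe set used. Its relative Slc1a5, which imports glutamine, read 2.87 against 1.73 and 3.68, with wild type between KO1 and KO2. The other probe set of Slc1a5 above the filter read 1.99 against 1.12 and 0.907, below wild type in both.

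The lysosomal and endosomal carriers gave mixed directions and no call. Slc15a4, which moves histidine and peptides out of endolysosomes, read 3.58 against 2.41 and 5.45. Slc38a9, a lysosomal carrier that reports arginine to mTOR, read 2.13 against 1.56 and 1.87. The lysosomal carrier Slc38a7 read 1.32 against 2.51 and 1.38. With the probe sets used, KO1 was the lowest array for Slc15a4 and Slc38a9 and the highest for Slc38a7. The 5 probe sets of Slc38a9 above the filter ranged from -0.99 to 0.02 in KO1 and from -0.79 to 0.44 in KO2. Slc15a3, a relative of Slc15a4, and Slc36a4, a carrier of proline and tryptophan, had means under 1, and their values ran from 0.572 to 1.27. None of these 5 was 2-fold from wild type in KO1 or KO2.

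The 6 tested carriers of transmitters, osmolytes and creatine, of 17 members with that role, were likewise less than 2-fold from wild type in KO1 and KO2. Slc6a8, the creatine transporter, read 44.0 against 42.7 and 55.8. Slc6a6, the taurine transporter, read 26.3 against 37.2 and 29.5. Slc6a4, the serotonin transporter, which clears serotonin released by enteroendocrine cells, read 11.8 against 13.9 and 12.2. With the probe sets used, the array that read highest was KO2 for Slc6a8 and KO1 for Slc6a6 and Slc6a4. The other probe sets of Slc6a6 above the filter all read lowest in KO1 and highest in KO2. The brightest of them read 15.6 against 10.3 and 18.2. Slc6a7, a proline transporter described in brain, read 4.74 against 6.13 and 6.34. Slc6a9, a glycine transporter, read 2.96 against 3.60 and 3.39. Slc1a2, a glutamate transporter of glia, barely passed the filter, with values from 0.440 to 0.808.

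The remaining tested members are less well known. Slc38a10 read 49.0 against 61.5 and 74.1, a log2 difference of 0.46 (SE 0.39). Slc7a15 read 3.17 against 2.77 and 3.93, and Slc38a6 read 2.31 against 2.16 and 2.58, both lowest in KO1. Slc7a4 read 0.957 against 1.63 and 2.38. Its other probe set above the filter read 1.38 against 0.190 and 1.46, far below wild type in KO1, so the direction depends on the probe set. Slc43a3, a purine base transporter, read 1.06 against 0.243 and 0.923, low in KO1 only. The opposite strand gene Slc7a6os, which codes for a protein of its own, read 6.80 against 6.12 and 7.60.

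The other 29 members had means under the filter value of 0.598, with single values from 0.01 to 0.856 and no test. They were Slc1a3, Slc1a6, Slc1a7, Slc6a2, Slc6a3, Slc6a5, Slc6a11, Slc6a12, Slc6a13, Slc6a15, Slc6a16, Slc6a17, Slc6a18, Slc6a19os, Slc6a21, Slc7a2, Slc7a3, Slc7a10, Slc7a12, Slc7a13, Slc7a14, Slc15a5, Slc36a1os, Slc36a2, Slc36a3, Slc38a3, Slc38a4, Slc38a5 and Slc43a1. Of these, Slc6a17 alone was 2-fold from wild type in both KO1 and KO2, at 0.213 against 0.717 and 0.681. Its other probe sets, also under the filter, read 0.263 against 0.191 and 0.635, and 0.277 against 0.0640 and 0.179, both below wild type in KO1.

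The members that read farthest above wild type were a pair of dim genes. Slc15a2, a peptide transporter best known from kidney and brain, read 0.149 in wild type, 1.29 in KO1 and 0.829 in KO2. Its mean log2 difference was 1.70 (SE 0.63), with a limma adjusted p of 0.9997. Slc6a20b, a neighbour of Slc6a20a on the same chromosome, read 0.301 in wild type, 1.38 in KO1 and 0.987 in KO2. Its mean log2 difference was 1.37 (SE 0.61), again with a limma adjusted p of 0.9997. These were the 2 of 38 members that read 2-fold or more above wild type in both KO1 and KO2, where 0.841% of all genes did. No member was 2-fold below in both, against 0.488% of all genes. Both genes lay under the filter value in wild type and passed it only through KO1 and KO2, so they had to differ, and the count is a description. With a pseudocount of 1, neither was 2-fold from wild type in both. With the mean of each gene's probe sets, both fell under the filter and were not tested.

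Other probe sets of these genes were dimmer still and did not all go the same way. For Slc15a2, a probe set read 1.02 against 0.05 and 0.521, the reverse of the order above. Another read 0.0280 against 0.462 and 0.311, the same order. The other probe set of Slc6a20b read 0.0950 against 0.476 and 0.0860, higher in KO1 only.

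**Figure D2:**
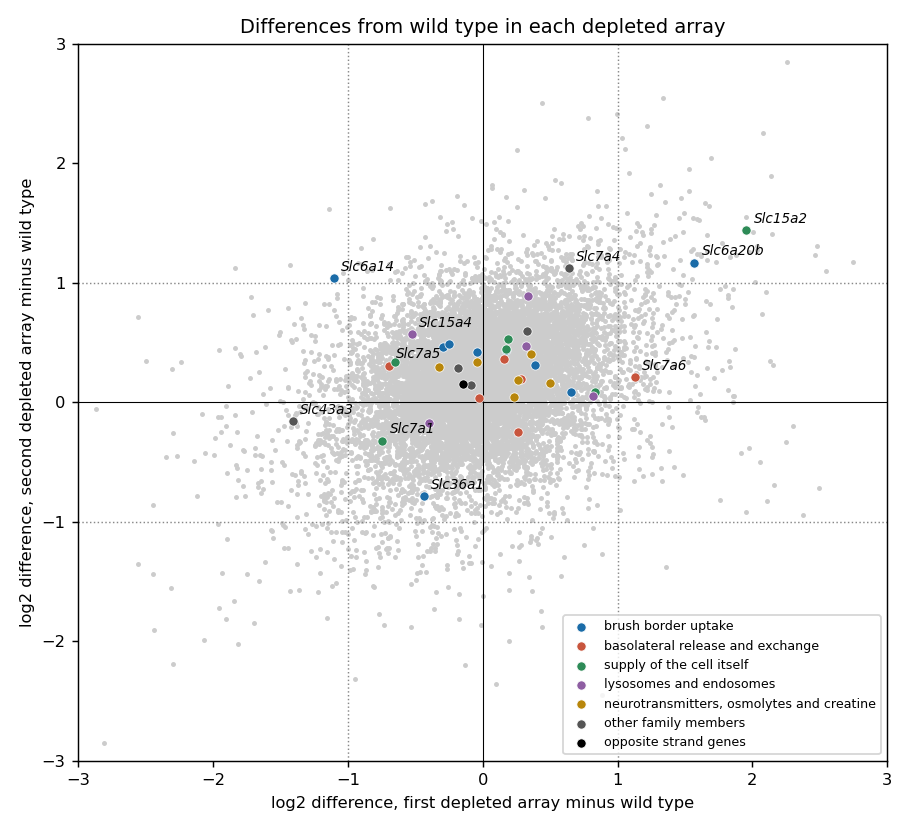
Log2 difference from wild type in KO1 (x axis, first depleted array) and in KO2 (y axis, second depleted array), for all genes tested (grey) and the 38 tested members, coloured by role; dotted lines mark a 2-fold difference, and 11 genes lie outside the plotted range of -3 to 3. The members lie within the grey cloud, with Slc15a2 and Slc6a20b past the lines in the upper right and Slc6a14 past them in the upper left.

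The letters GTGGGAA, the core recognised by RBP-J, were searched on both strands of the 250 bases before each start that RefSeq lists (GRCm38.p6). A start was listed for 49 of the 67 members, and 6 of the 49 held the letters, beside 6.18% of 27025 genes. Among the tested members with a listed start they were found for 2 of 29, Slc6a19 and Slc7a6os. The letters TGATGNAA, which ATF4 binds with a C/EBP partner when amino acids are short, were found for 2 of the 49, Slc7a7 and Slc6a21, beside 3.91% of all genes. Neither motif contains the other. A match is not a measured binding site, and no match says only that these letters are not in this window.

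The windows printed here are those of Slc6a19, the brush border carrier with a match, of Slc15a2 and Slc6a20b, the members farthest above wild type, and of Slc6a20a, the neighbour of Slc6a20b. They run along each gene's strand. Capitals mark the match, which in Slc6a19 lies on the opposite strand from base -61 to -55, counted from the start. The windows lie at chr13:73692637-73692886, minus strand (Slc6a19), chr16:36784963-36785212, minus strand (Slc15a2), chr9:123632539-123632788, minus strand (Slc6a20b) and chr9:123678833-123679082, minus strand (Slc6a20a). The starts used for Slc6a19 and Slc15a2 lie inside the spans that RefSeq gives these genes, chr13:73679745-73700780 and chr16:36750161-36785158.
Slc6a19: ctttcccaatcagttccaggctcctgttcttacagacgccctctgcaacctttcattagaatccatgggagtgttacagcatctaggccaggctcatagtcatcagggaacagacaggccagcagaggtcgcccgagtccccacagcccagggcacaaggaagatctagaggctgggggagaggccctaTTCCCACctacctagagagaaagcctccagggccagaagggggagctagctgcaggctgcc
Slc15a2: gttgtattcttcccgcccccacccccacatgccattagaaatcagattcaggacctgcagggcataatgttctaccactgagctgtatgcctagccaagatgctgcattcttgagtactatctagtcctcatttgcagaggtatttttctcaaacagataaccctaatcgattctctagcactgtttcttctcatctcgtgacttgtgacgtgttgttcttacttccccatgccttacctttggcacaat
Slc6a20b: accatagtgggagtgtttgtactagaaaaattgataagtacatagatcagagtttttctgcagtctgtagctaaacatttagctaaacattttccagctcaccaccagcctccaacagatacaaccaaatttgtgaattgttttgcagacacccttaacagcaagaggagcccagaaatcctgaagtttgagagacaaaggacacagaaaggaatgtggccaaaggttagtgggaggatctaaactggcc
Slc6a20a: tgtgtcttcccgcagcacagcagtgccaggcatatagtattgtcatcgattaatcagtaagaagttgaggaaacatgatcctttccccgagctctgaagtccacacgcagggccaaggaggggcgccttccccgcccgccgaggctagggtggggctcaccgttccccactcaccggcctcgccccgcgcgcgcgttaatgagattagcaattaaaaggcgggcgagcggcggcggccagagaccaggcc

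Many members have several probe sets, and these bear on how firmly a direction can be read. Of 131 member probe sets, 69 had a mean at or above the filter. For 17 members more than 1 did, and for 4 of the 17 (Slc38a1, Slc6a9, Slc6a14 and Slc7a6) all of them had the same sign within KO1 and the same sign within KO2. In KO1 the probe sets of 5 of the 17 genes shared a sign, and in KO2 those of 10 did. The 6 probe sets of Slc38a10 ranged from -0.11 to 0.86 in KO1 and from -0.54 to 0.70 in KO2. The 4 of Slc6a6 ranged from -0.59 to 0.50 and from 0.17 to 0.85.

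**Figure D3:**
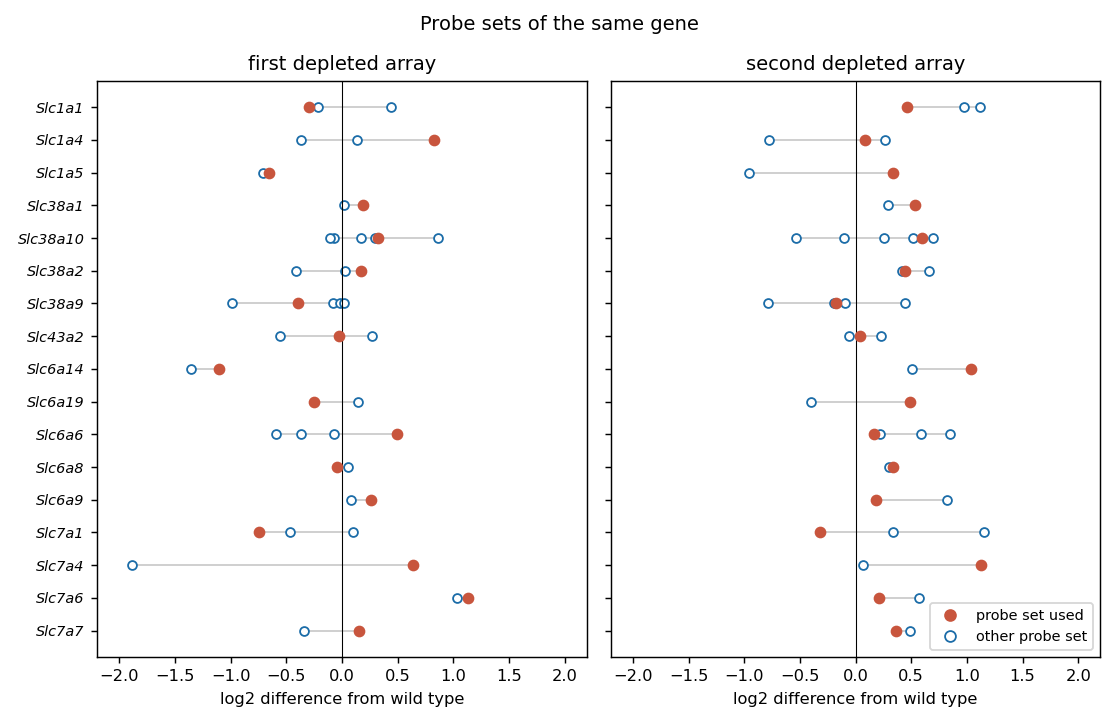
Log2 difference from wild type of every probe set above the filter, for the 17 members with more than 1, in KO1 (left) and KO2 (right); filled points are the probe sets used and open points the others. For most genes the points straddle 0 in KO1, and for Slc6a14 and Slc7a6 they lie on the same side of 0 within each array.

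Differences of 2-fold or more were, over all genes, more frequent between KO1 and KO2 than between either and wild type. In KO1, 5 of 38 members were 2-fold or more from wild type (Slc15a2, Slc43a3, Slc6a14, Slc6a20b and Slc7a6), beside 6.42% of all genes. In KO2, 4 were (Slc15a2, Slc6a14, Slc6a20b and Slc7a4), beside 5.21%. Both counts include Slc15a2 and Slc6a20b, which passed the filter only through KO1 and KO2, so that these genes had to differ. Between KO1 and KO2, 4 members were 2-fold apart, beside 9.06% of all genes. These were Slc6a14, Slc43a3, Slc15a4 and Slc7a5, each lower in KO1. Over all genes, 66.9% were lower in KO1 than in KO2.

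Marker lists of other cell types also differed between these arrays, in several orders. The summed level of 9 B cell markers was 45.8 in wild type, 20.2 in KO1 and 48.1 in KO2, and none of the 9 was at 0. For 6 T cell markers the sum was 15.4 against 12.7 and 21.1. For 5 genes of dividing cells it was 95.6 against 78.0 and 119. The 10 markers of follicle-associated epithelium and M cells summed to 417 against 459 and 607. Among them Gp2, which binds bacteria at the M cell surface, read 19.8 against 9.90 and 32.6. Of the 10, 6 read higher than wild type in KO1 and 9 in KO2, and Gp2 was among those lower in KO1. The 6 macrophage and dendritic cell markers summed to 134 against 148 and 205, and the 5 plasma cell markers to 47.0 against 49.4 and 80.8. The 8 goblet cell markers summed to 585 against 932 and 777, with 8 of 8 higher than wild type in KO1 and 7 in KO2. The B cell, T cell and dividing cell sums were thus lowest in KO1, the goblet cell sum was highest there, and the macrophage, plasma cell and follicle-associated epithelium sums were lowest in wild type. The order of the plasma cell sum was not shared by all its markers. Jchain and Mzb1 read below wild type in KO1, with log2 differences of -0.42 and -1.32. Sdc1 and Derl3 read above it, with 0.56 and 0.32. No direction can be given for plasma cells in KO1. The ratio of 3' to 5' control probe sets of Gapdh, a sign of RNA quality, was 1.83 in wild type, 2.28 in KO1 and 1.54 in KO2, and that of Actb was 1.11, 1.15 and 1.02. The part of these cells and of RNA quality in the values of Slc6a14, Slc43a3, Slc15a4 and Slc7a5 was not tested. The 13 markers of absorptive enterocytes, the cells in which most brush border carriers work, had median log2 differences of 0.15 in KO1 and 0.33 in KO2, beside 0.17 and 0.31 for the tested transporters.

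Other genes of protein digestion and amino acid use gave no call either. Of 81 tested genes in 5 lists, limma called 0, with 1 at an unadjusted p under 0.05, and 0 were 2-fold above, or 2-fold below, wild type in KO1 and KO2 alike. The 17 peptidases, which cut peptides to the size that carriers accept, had median differences of 0.14 and 0.27. The brush border enzyme Anpep read 144 against 150 and 172. Naaladl1 read 110 against 130 and 143, and Mep1b read 84.5 against 86.1 and 98.5. All of these read above wild type in KO1 and KO2, by less than 0.5 on the log2 scale. The gene at an unadjusted p under 0.05, named after its values were seen, was Tmprss15, the enteropeptidase that activates trypsinogen in the duodenum. It read 0.146 in wild type, 4.89 in KO1 and 0.0960 in KO2, above the array median in KO1 alone.

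The 10 partners of the transporters and other membrane carriers had medians of -0.003 and 0.27. The scaffold protein gene Slc9a3r1 read 82.2 against 93.5 and 104, and the scaffold gene Pdzk1 read 41.2 against 41.3 and 53.4. The carnitine transporter Slc22a5 read 13.1 against 13.0 and 15.0. The 8 mitochondrial carriers had medians of 0.12 and 0.31. Among them the ornithine carrier Slc25a15 read 40.8 against 47.1 and 52.2, Slc25a39 read 26.9 against 30.8 and 31.2, and the glutamate carrier Slc25a22 read 10.6 against 16.2 and 17.6.

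Lysosomal carriers and sensors of amino acids had medians of 0.16 and 0.18 over 22 genes. Lamtor1, which helps anchor mTOR regulation to lysosomes, read 32.2 against 40.1 and 54.3. Rragd, a small GTPase of that machinery, read 33.3 against 26.4 and 48.7, and the stress-induced sensor gene Sesn1 read 22.1 against 23.7 and 22.3. The 24 enzymes of amino acid breakdown and synthesis had medians of -0.02 and 0.35. Odc1, of polyamine synthesis, read 83.9 against 81.1 and 87.1. Cps1, of citrulline synthesis, read 65.3 against 63.6 and 77.5, and Arg2, a mitochondrial arginase, read 48.9 against 55.7 and 62.0. Slc7a11, the cystine importer induced by amino acid stress and left out of the members, read 0.5 against 0.585 and 1.39.

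**Figure D4:**
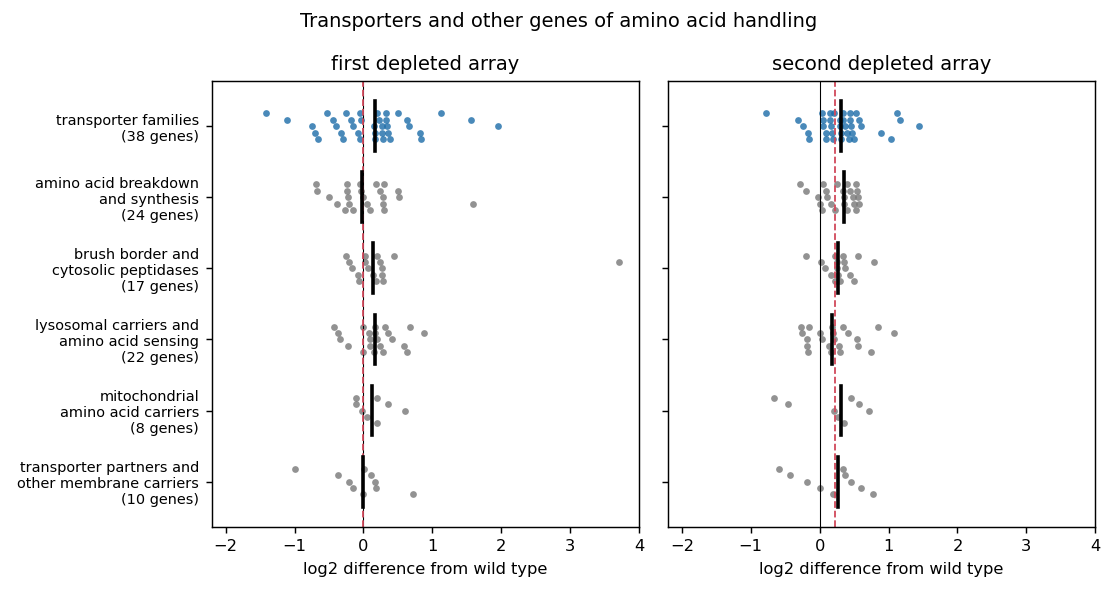
Log2 difference from wild type of the tested transporters (blue) and of 5 lists of other genes of amino acid handling (grey), with a point for each gene, in KO1 (left) and KO2 (right); black bars are list medians, and the dashed red line is the median over all genes tested. All list medians lie within 0.5 of 0, and the far point on the left is Tmprss15.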

How the data were processed

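Total RNA of follicle-associated epithelium was labelled as biotinylated cRNA and hybridised to Affymetrix arrays, 1 of wild type and 2 of RBP-J depleted mice. The authors deposited linear intensities for each probe set, computed with MAS5 according to the submitters' processing notes, and all arrays have a median of 1. Neither scanner files nor detection calls were used. Of 45101 probe sets, 34945 that are not controls had 1 gene symbol in the platform annotation. Those with several symbols (932) or none (9160) were left out. All 67 members matched a RefSeq gene (GRCm38.p6) by Entrez number. The probe set brightest on average stood for its gene. The intensity filter, a mean of 0.598, is the 40th percentile of probe set means. Values were tested as log2(value + 0.248), where 0.248 is the 25th percentile of all values, with limma 3.58.1 (lmFit, then eBayes with trend) in R 4.3.3. Benjamini-Hochberg adjustment ran over 11885 genes, and calls needed an adjusted p below 0.05. Since there is 1 wild type array, the fit takes its spread from the depleted arrays, pooled over genes. Precision is limited by the number of arrays.

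The naming rule gave every tested member with a mean of at least 1 by its 3 values, others by range, and members under the filter by name. Slc15a2, Slc6a20b, Slc43a3 and Slc6a17 are given with their values outside that rule, chosen after these were seen. From the related lists it took genes called or 2-fold changed on both depleted arrays, and the 3 brightest of each. The members and lists were chosen with earlier results of these data known. Roles were assigned after the values were seen. Alternatives were other pseudocounts, filters, scalings and probe set choices, eBayes without trend, and leaving out each depleted array.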

Additional observations from a re-analysis of the deposited data

How the results depend on the processing

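No member and no related gene was called by limma in any of the 9 alternatives that were fitted. The count of members 2-fold from wild type on both arrays, 2 with the main settings, was 0 with a pseudocount of 1 or 5, with a filter at the 60th percentile and with probe sets averaged per gene. Under the last pair of settings both genes fall below the filter. It was 3 with no intensity filter. With KO1 or KO2 alone the count was 4 without KO1 and 5 without KO2. The median log2 difference of the members, 0.20, moved to 0.022 under quantile normalization, and was 0.17 without KO2 and 0.31 without KO1. The median of all genes in KO2, 0.22, was 0.02 under quantile normalization and 0.04 when every array was scaled to 1 common 75th percentile. Over all genes, the 10 calls were 1 with no filter, 6 with the 60th percentile filter, 3 under quantile normalization and 4 under the 75th percentile scaling. The 100 genes 2-fold higher and 58 lower in KO1 and KO2 were 19 and 19 with a pseudocount of 1, 3 and 4 with a pseudocount of 5, 162 and 124 with no filter, 41 and 25 with the 60th percentile filter, and 54 and 27 with probe sets averaged. Members that changed sign under quantile normalization gave -0.055 for Slc15a4, -0.090 for Slc1a1, -0.023 for Slc3a1, -0.25 for Slc43a2, -0.046 for Slc6a19, -0.068 for Slc6a8, -0.0041 for Slc7a15, -0.089 for Slc7a6os and -0.16 for Slc7a8. Scaling to the 75th percentile gave -0.047 for Slc15a4, -0.036 for Slc38a6, -0.067 for Slc43a2, -0.013 for Slc7a15, -0.065 for Slc7a6os and -0.062 for Slc7a8. Averaging probe sets gave -0.41 for Slc15a4, -0.18 for Slc38a6, -0.019 for Slc43a2, -0.0027 for Slc6a19, 0.0094 for Slc7a1 and -0.057 for Slc7a4. Without _x_at and _s_at probe sets the value was -0.91 for Slc7a4. A pseudocount of 1 gave 0.0005 for Slc1a2 and 0.050 for Slc6a14, and a pseudocount of 5 gave 0.0021 for Slc1a2 and 0.075 for Slc6a14. For the members whose sign turned when KO1 or KO2 was left out, the lowest and highest differences were -0.53 and 0.57 for Slc15a4, -0.29 and 0.46 for Slc1a1, -0.32 and 0.29 for Slc1a2, -0.65 and 0.33 for Slc1a5, -0.085 and 0.14 for Slc38a6, -0.046 and 0.42 for Slc3a1, -0.031 and 0.040 for Slc43a2, -1.10 and 1.04 for Slc6a14, -0.25 and 0.49 for Slc6a19, -0.043 and 0.34 for Slc6a8, -0.18 and 0.29 for Slc7a15, -0.70 and 0.31 for Slc7a5, -0.15 and 0.15 for Slc7a6os, -0.25 and 0.26 for Slc7a8. The cause of these changes was not tested. The fit has 1 residual degree of freedom and 1 wild type array, and with KO1 or KO2 left out there is no test.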
